A study of Mus musculus with 11 samples.

Results

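The transcriptome of wild type liver sinusoidal endothelial cells (LSEC) under high fat feeding is described from 6 arrays of a series of 11. The members were the arrays titled wild type LSEC after 2 weeks of high fat diet, taken without the 5 knockout arrays. The mice carried Atg5 alleles flanked by lox sites and no Cre recombinase, were put on the diet at 8 weeks of age and stayed on it for 2 weeks. The knockout arrays, used only at the end for a side-by-side reading, came from mice with the same floxed alleles and a VE-cadherin-Cre transgene, which is active in endothelium, on the same diet for the same time. Every group was fed high fat, and arrays of another diet or of unfloxed mice were not used here, so no level can be set against a lean baseline. The titles number the arrays as biological replicates but do not say whether each is 1 mouse or a pool, and the spread given is that between these arrays. Isolation of the cells is not given in the sources used here. Total RNA was hybridised to Mouse Clariom S arrays, and the values are log2 levels from the authors' RMA summary.

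LSEC are the endothelium of the hepatic capillaries. They lie between blood and hepatocytes, are pierced by fenestrae without a continuous basement membrane, and clear waste molecules, immune complexes and small particles from blood by scavenger receptors and fast endocytosis. They also release signals that set the zones of the lobule and the iron hormone of hepatocytes, and they present antigen and sense microbial products arriving from the gut. Kept away from the liver, or in chronic injury, they lose these traits and take on those of ordinary capillaries.

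Among 22206 transcript clusters, the platform annotation gave a symbol to 19572, and 1 cluster per symbol (that of highest mean) left 19505 genes. Levels were ranked by the mean over the 6 arrays. Probes differ in affinity, so a rank orders signals and not transcript numbers. A gene was counted as above background on an array when it exceeded the 95th percentile of that array's 23 antigenomic rows, which are probe sets without a target in the genome. That limit lay between 7.78 and 8.66 log2 units. The antigenomic rows ran from 2.31 to 2.39 at the lowest to 7.90 to 8.78 at the highest, so the limit lay near their top. The same limit served all genes of an array, whatever the GC content of their probes. By this limit 3377 genes, or 17.3% of all, were above background on every one of the 6 arrays, and by the mean of the antigenomic rows 15284 were.

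Arrays 1 and 6 stood apart from arrays 2 to 5 before any gene was considered. Their intron control rows, which read unspliced RNA or DNA, had medians of 5.98 and 6.0, against 4.98 to 5.20 on the other 4 arrays. Their antigenomic means were also the lowest, at 4.68 and 4.67 against 4.90 to 5.17. The correlation over all genes was 0.991 between arrays 1 and 6 and 0.961 to 0.991 over all 15 pairs, a description of arrays that share a platform and a normalization. Results on spread are therefore given with and without arrays 1 and 6.

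Levels spanned 13.55 for B2m, the light chain of MHC class I and the gene of highest mean, to 2.42 for Esp34, the lowest. The median gene was at 6.76, the gene at rank 100 at 12.27 and that at rank 975, the lower edge of the top 5% of levels, at 10.45. Of the 30 highest genes, 27 to 29 stayed among the 30 highest when an array was left out.

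**Figure D1:**
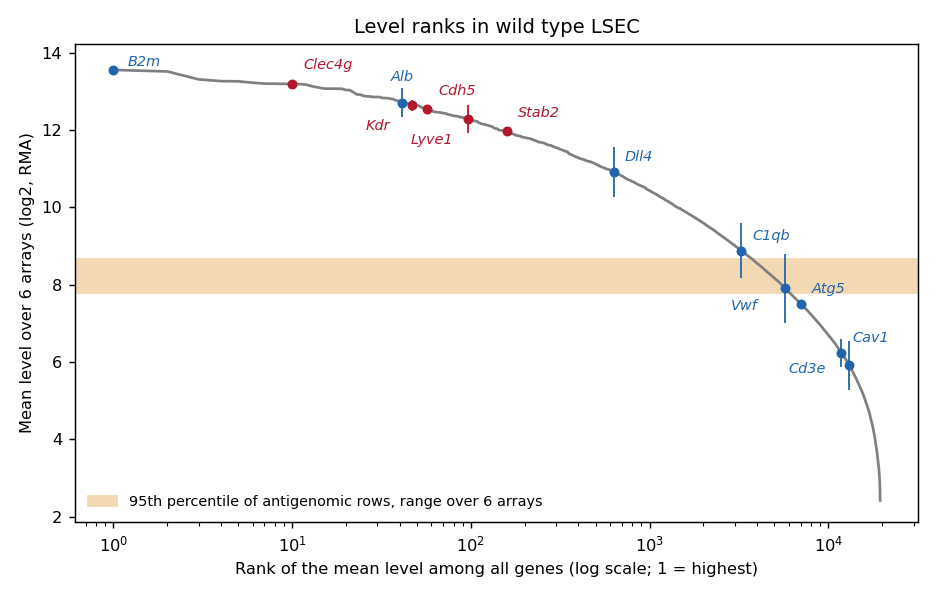
Mean log2 level of every gene in 6 wild type LSEC arrays (vertical axis) against its rank (horizontal axis, log scale), with error bars of 1 SD on the named genes. The 5 sinusoidal and endothelial label genes (red) lie between ranks 10 and 159, whereas Cd3e of T cells and Cav1 lie under the band of background limits.

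The markers of the label ranked high. Clec4g, a C-type lectin of sinusoidal endothelium, ranked 10th of all genes and read 13.02, 13.25, 13.28, 13.23, 13.21 and 13.14 on arrays 1 to 6. Kdr, the main VEGF receptor, was at 12.64 ± 0.14 (SD, n = 6) and rank 47. Cdh5, which encodes the adherens junction protein VE-cadherin, was at 12.54 ± 0.04 and rank 57, and its 6 arrays lay between 12.47 and 12.59. Lyve1, a hyaluronan receptor shared with lymphatic vessels, was at 12.28 ± 0.37 and rank 97. Stab2, the scavenger receptor for hyaluronan that is a hallmark of LSEC, was at 11.96 ± 0.12 and rank 159. Of these 5 genes Lyve1 varied most, with 12.91 on array 5 against 11.91 to 12.41 on the rest. All 5 were above background on every array.

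A wider list of 20 LSEC identity genes had a median level of 11.89, against 6.76 over all genes, and 16 of the 20 lay in the top 5% of levels. Beside Clec4g the leaders were Fcgr2b at 13.18 (rank 11), the inhibitory Fc receptor that takes up immune complexes, and Oit3 at 13.10 (rank 14), a secreted protein used as an LSEC marker. Dnase1l3, which degrades DNA in the circulation, was at 12.82 and rank 32. F8, for which LSEC are a main source of coagulation factor VIII, was at 12.31 and rank 91. Ehd3, of endocytic recycling, was at 12.23, and Mrc1, the mannose receptor, at 12.12. The transcription factor Gata4, needed for sinusoidal fate, was at 10.86 and Maf at 10.09 ± 0.50, the largest spread in the list. The only member not above background on all 6 arrays was Cd209b, a DC-SIGN homologue, at 8.12 with 4 arrays above.

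General endothelial genes were nearly as high. Of 22 members, 20 were above background on all 6 arrays and the median level was 10.77. Eng, a co-receptor for BMP and TGF-beta, led at 13.06 (rank 18), followed by Cdh5, Pecam1 at 12.16 and the phosphatase Ptprb at 12.12. Nos3, the endothelial nitric oxide synthase, was lower and varied more, with 8.25 and 8.31 on arrays 1 and 6 and 8.88 to 9.73 on the others. Tal1 was the lowest at 7.59 and above background on 0 arrays.

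Genes of larger vessels and lymphatics were mixed. Of 16 large-vessel genes 9 were above background on all arrays, with a median of 8.80. The selectin Selp, which slows rolling leukocytes, was at 11.97 ± 0.48, Clu at 11.89 and the proteoglycan Bgn at 11.85. The artery kinase Bmx was at 3.47. Vwf, the platelet-binding factor of vein and artery lining, was at 6.92, 8.03, 9.10, 7.91, 8.59 and 6.85 on arrays 1 to 6, so only arrays 3 and 5 exceeded their limit. Cd34, which capillaries gain when sinusoids lose their character, was at 8.92 ± 0.63, and Cav1, the main caveolar protein, was at 6.24 and above background on 0 arrays. Plvap, the diaphragm protein of fenestrae and caveolae, was at 10.73. Of 6 lymphatic genes, Flt4 (11.44), which LSEC also express, Reln (8.97) and Ccl21a (8.63) were above background throughout, while Prox1, the lymphatic master regulator, was at 7.48 and above on 0 arrays.

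**Figure D2:**
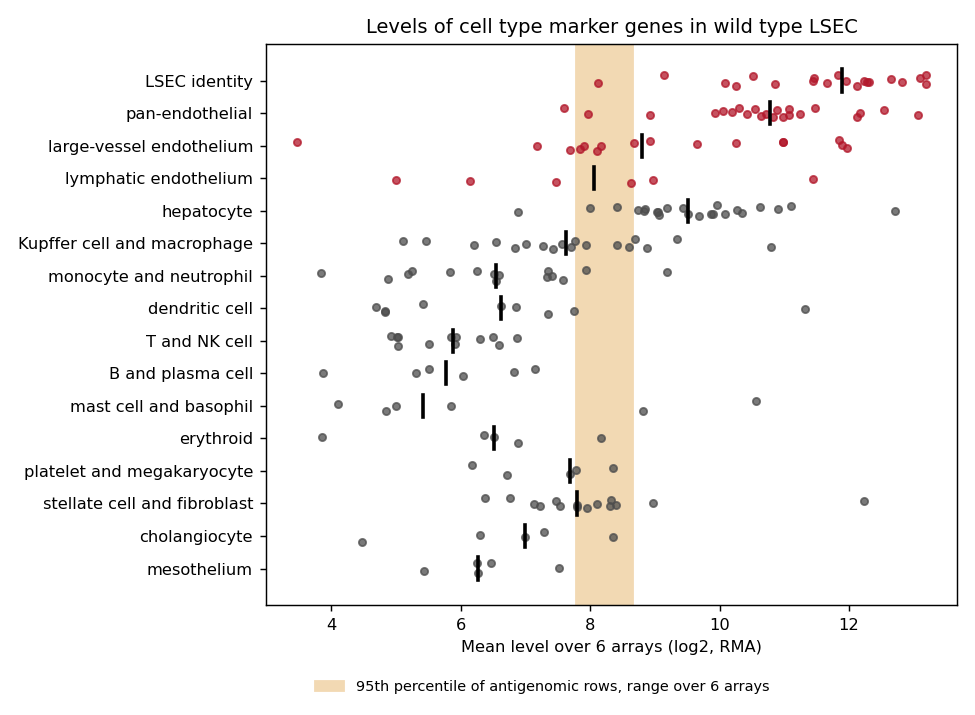
Mean log2 level over 6 wild type LSEC arrays of each measured marker gene (points), by cell type list (rows), with list medians as black bars and the range of background limits shaded. Identity genes of LSEC centre on 11.89 and hepatocyte genes on 9.51, while T and NK, B, erythroid and mesothelial lists centre between 5.78 and 6.52.

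Marker genes of other liver cells differed widely in level. Among hepatocyte genes 14 of 23 were above background on all arrays, with a median of 9.51. Alb, the most abundant liver secretory transcript, read 13.03, 12.54, 12.49, 12.52, 13.31 and 12.33 on arrays 1 to 6. This put it at rank 41, below Clec4g but above Kdr, Cdh5, Lyve1 and Stab2. Serpina1a was at 11.11 and Apoa2 at 10.62, while Cps1, the urea cycle entry enzyme, was at 6.88 and above background on 0 arrays. The list mean per array ran from 8.99 on array 6 to 10.50 on array 5. In bulk RNA, fewer cells of a type and less RNA per cell cannot be told apart. Whether these transcripts came from hepatocytes in the preparation was not tested.

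Macrophage genes were lower and uneven. Of 18, only Slc40a1, Il18bp and C1qb were above background on all arrays, and 12 of 18 had an SD of at least 0.5, against 9.14% of all genes. Slc40a1, the iron exporter ferroportin, is also an endothelial gene of the liver and followed another pattern, given further on. C1qb, a subunit of complement C1q made by Kupffer cells, was at 7.96 and 8.13 on arrays 1 and 6 and 9.02 to 9.85 on the rest. Lyz2, lysozyme of myeloid cells, was at 9.84 and 10.33 on arrays 4 and 5 and 7.86 to 8.20 on the other 4. The list mean was 8.50 on array 5 and 7.33 to 7.80 elsewhere. In the monocyte and neutrophil list only Plac8 of 15 was above background on all arrays, and S100a8, a neutrophil alarmin, read 5.94 to 8.52 and was above background on array 3 only.

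Stellate cell and fibroblast genes had a median of 7.80, with 2 of 15 above background throughout. One was Dcn, the matrix proteoglycan decorin, at 12.24 ± 0.33 and rank 103, far above the rest of its list. The other was Reln, which is also in the lymphatic list. Col3a1, a fibrillar collagen, ran from 6.26 and 6.33 on arrays 1 and 6 to 9.02 on array 5, the only array on which it was above background. None of the 12 T and NK genes, 6 B cell genes, 5 erythroid, 5 platelet, 5 cholangiocyte or 5 mesothelial genes was above background on all 6 arrays. T cell Cd3e was at 5.91 and B cell Cd79a at 6.83. Of the dendritic cell list only Bst2 was above throughout, a gene that interferon also induces, and of 6 mast cell genes Hdc (10.56), the histamine-forming enzyme, and Gata2 (8.82) were, while the mast cell receptor subunits Fcer1a (4.75 to 5.15) and Ms4a2 (3.67 to 4.49) were above on 0 arrays.

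The 30 highest genes contained no predicted gene and 1 ribosomal protein gene, Rps23. Behind B2m stood Hmox1 at 13.51 ± 0.26, heme oxygenase, which breaks down heme. Serinc3, a membrane protein, was at 13.30, Igfbp7, a secreted endothelial protein, at 13.26, the chemokine Cxcl10 at 13.26 and the water channel Aqp1 at 13.22. The metallothioneins Mt1 (13.20) and Mt2 (13.03), which bind zinc and copper, and both ferritin chains Ftl1 (13.06) and Fth1 (12.97), which store iron, were in the same group. So were Selenop (13.17), the selenium carrier, Apoe (13.06), the lysosomal protease Ctsb (13.06) and Csf1 (12.91), the growth factor of macrophages. Ifitm3 (13.19) and Ifitm2 (13.12) restrict virus entry. Cdkn1a (12.85) encodes the cell cycle inhibitor p21, and Ier3 (12.87) is an early response gene. The SD of these 30 genes ranged from 0.03 to 0.26. The highest value in the deposited table was 13.79, and compression of differences near the top of the scale was not tested.

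Of 17 scavenger and uptake receptors 11 were above background on all arrays and 10 in the top 5% of levels. Cd36, a receptor for fatty acids and modified lipoproteins, was at 11.66, Msr1 at 11.34 and Scarb1, the HDL receptor, at 10.14. Cd163, the haemoglobin scavenger of macrophages, was at 5.47 and above on 0 arrays. In the endocytic machinery 16 of 20 were above throughout, led by the late endosome GTPase Rab7 at 12.91 ± 0.05 and the clathrin heavy chain Cltc at 12.36 ± 0.40. Eea1, an early endosome tether, had the largest spread there, with 10.49 and 10.43 on arrays 1 and 6 and 8.18 to 9.31 on the rest. Among 20 lysosomal genes 17 were above throughout, with Ctsb, Lamp2 (12.81), Lgmn (12.37) and Psap (12.11) in front. Ctss, a cathepsin of antigen-presenting cells, was at 9.39 and 9.97 on arrays 4 and 5 and 8.22 to 8.41 elsewhere, the same 2 arrays on which Lyz2 was high.

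Autophagy genes sat lower than lysosomal ones, with 11 of 23 above background and a median of 8.34. The cargo receptor Sqstm1 was at 12.75 and rank 39, Gabarap at 12.10, Gabarapl1 at 11.30 and Map1lc3b at 11.23. Atg5 itself, the floxed gene, read 7.55, 7.57, 7.40, 7.52, 7.38 and 7.59. It ranked 7017 and was above background on 0 arrays, so its signal was under the limit throughout. Rb1cc1, a scaffold of the initiating kinase complex, varied most, at 8.50 and 8.38 on arrays 1 and 6 and 6.44 to 7.68 on the others.

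Of 13 genes in the VEGF and angiopoietin list, 9 were above background and 6 in the top 5% of levels. None had an SD of 0.5 or more, beside 9.14% of all genes, and the list's median SD, 0.28, was close to the 0.29 of genes above background. Nrp2 and Flt1 were both at 11.48, Flt4 at 11.44 and Tek, the angiopoietin receptor, at 10.72 ± 0.40, whereas its ligand Angpt1 was at 5.95. In the BMP and TGF-beta list 15 of 19 were above background, with the receptor Bmpr2 at 11.80, the ligand Tgfb1 at 11.38 and Bmp6, which makes hepatocytes produce hepcidin, at 10.76 ± 0.30. Id1, a direct target of BMP signalling, ran from 8.28 to 9.96 with array 2 highest. The receptor Bmpr1a was the lowest, at 5.23.

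Of 15 Notch pathway genes 5 were above background and 2, Dll4 and Nrarp, had an SD of 0.5 or more, beside 9.14% of all genes. Dll4, the arterial Notch ligand, was at 11.79 and 11.60 on arrays 2 and 4 and 10.12 to 10.71 on the rest. Nrarp, a feedback target of Notch, was at 7.75 and 7.92 on arrays 2 and 4 and 5.66 to 6.80 on the rest, below its limit on all 6 arrays. Hes1, another target, was at 9.93 and 9.79 against 9.04 to 9.46. The pair of arrays was noticed in these values, so the split is a description. Arrays 2 and 4 were also alike over all genes, with a correlation of 0.987. Icam1, outside this list, read 12.49 and 12.32 on them and 11.57 to 11.83 on the rest. The share of all genes with this split was not counted, so it cannot be read as particular to Notch. Notch1 was at 9.35 ± 0.21 and Rbpj, the DNA-binding partner of the receptors, went the other way, at 9.11 and 9.43 on arrays 2 and 4 and 9.70 to 10.11 on the rest.

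Rspo3, which central vein endothelium releases to sustain Wnt signalling in nearby hepatocytes, read 7.68, 7.83, 10.15, 6.53, 9.06 and 7.95, and was above background on arrays 3, 5 and 6 only. Of 7 pericentral endothelial genes 6 were highest on array 3, as were 14.1% of all genes. Among them were Kit (11.24 against 9.82 to 10.74), Thbd (11.08 against 9.94 to 10.77) and Fabp4 (11.98 against 10.91 to 11.74). Vwf, given above, and Nr2f2, the vein-specifying transcription factor (11.17 against 9.57 to 10.35), were highest there too. Array 3 was also highest for 11 of 20 LSEC identity genes and 9 of 22 general endothelial genes. For large-vessel genes it was 3 of 16 and for periportal genes 2 of 8. Whether the pericentral genes go beyond this wider endothelial pattern was not tested. The pericentral ligand Wnt9b was at 7.88 ± 0.24 and above background on 0 arrays. Of the periportal genes, Msr1 was at 11.34 and Efnb2, an arterial ephrin, at 10.99, while Ntn4 ran from 8.23 to 9.79. Kitl, the ligand of Kit, was at 12.23 and 12.08 on arrays 1 and 6 and 10.50 to 11.27 on the other 4.

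Interferon-related genes ranked high. Of 16 interferon-stimulated genes 15 were above background throughout and 10 in the top 5%, with a median level of 11.11. After Ifitm3 and Ifitm2 came Ifit3 at 12.42 ± 0.36, an antiviral protein, and Rsad2 at 11.89 ± 0.44, the enzyme viperin. The exception was Mx1 at 7.09. The interferon-induced chemokines Cxcl10 and Cxcl9, which attract T cells through CXCR3, stood at ranks 5 and 31, and Cxcl9 was at 12.85 ± 0.10. Cxcl16 was at 12.23. Bst2 was at 10.16 on array 1 and 11.14 to 11.70 on the other 5.

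The letters upstream of these genes can be read beside their levels. The pattern GAAANNGAA, the core of the element bound by interferon-activated factors, was searched on both strands in the 250 bases before the start of each gene in RefSeq promoters (build GRCm38.p6). It occurred in 9 of 14 promoters of listed interferon-stimulated genes (64.3%) and in 1934 of 27025 promoters of all genes (7.16%). A match is a description of letters and not a binding site. Shown are Ifit1 (11.68 ± 0.33) and Isg15 (10.20 ± 0.50) of that list, each with 3 copies, and the 2 chemokines at ranks 5 and 31, each with 1 copy, all picked after their values were seen. Every line runs 5′ to 3′ on the gene's strand, and capitals mark the pattern or its reverse complement. Ifit1 lies at chr19:34640639-34640888 on the plus strand, Isg15 at chr4:156200819-156201068, Cxcl10 at chr5:92348890-92349139 and Cxcl9 at chr5:92328080-92328329, the last 3 on the minus strand.
Ifit1: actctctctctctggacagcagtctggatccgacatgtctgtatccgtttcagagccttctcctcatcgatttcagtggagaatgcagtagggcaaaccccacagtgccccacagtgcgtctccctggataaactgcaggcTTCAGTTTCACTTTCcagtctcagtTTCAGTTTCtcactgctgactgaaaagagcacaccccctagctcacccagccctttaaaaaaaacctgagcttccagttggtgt
Isg15: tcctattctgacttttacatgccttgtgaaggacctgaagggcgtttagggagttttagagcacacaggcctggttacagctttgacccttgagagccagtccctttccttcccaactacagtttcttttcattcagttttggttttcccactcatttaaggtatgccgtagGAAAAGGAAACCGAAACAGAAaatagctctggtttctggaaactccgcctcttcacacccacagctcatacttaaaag
Cxcl10: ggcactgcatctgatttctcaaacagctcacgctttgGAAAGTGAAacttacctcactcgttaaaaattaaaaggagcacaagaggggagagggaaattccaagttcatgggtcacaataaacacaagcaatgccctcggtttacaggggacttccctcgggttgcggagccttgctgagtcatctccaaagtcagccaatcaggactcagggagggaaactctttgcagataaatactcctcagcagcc
Cxcl9: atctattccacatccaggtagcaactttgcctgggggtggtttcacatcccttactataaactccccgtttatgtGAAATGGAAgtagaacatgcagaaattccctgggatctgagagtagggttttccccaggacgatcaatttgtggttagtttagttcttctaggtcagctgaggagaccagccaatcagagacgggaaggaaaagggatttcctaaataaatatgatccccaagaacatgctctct

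Antigen presentation genes were read by class. Of 9 MHC class I genes 8 were above background, with B2m, H2-K1 at 12.64 and H2-D1 at 11.61. In class I 0 of 9 had an SD of 0.5 or more, which is near the 9.14% of all genes. Of 6 MHC class II genes 2 were above throughout and 5 of 6 had an SD of 0.5 or more. H2-Aa was at 10.50 and 10.84 on arrays 4 and 5, 10.09 on array 2 and 8.95 to 9.55 on the others, and H2-Ab1 at 10.56 and 10.63 on arrays 4 and 5 and 8.55 to 9.86 elsewhere. These are the arrays with the highest Lyz2 and Ctss levels and the highest macrophage list means (7.80 and 8.50 against 7.33 to 7.49). The part of macrophage RNA in the class II levels was not tested. Ciita, the transactivator of class II, was at 6.22 and above background on 0 arrays. For microbial sensing, Ly96, the partner of Tlr4, ran from 11.17 to 12.47, with Tlr3 at 11.04, Tlr2 at 10.80 and Myd88, the shared adaptor, at 10.62, whereas Tlr7 was at 6.62 and Tlr6 at 4.55.

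Of 26 cytokine and chemokine genes 12 were above background and 10 had an SD of 0.5 or more, beside 9.14% of all genes. The list mean was 8.84 to 9.08 on 5 arrays and 9.66 on array 5, which also had the highest macrophage list mean, 8.50, and the part of macrophage RNA was not tested. Ccl9, a macrophage chemokine, had the largest SD of the list, with 9.94 on array 5 and 6.72 to 8.62 elsewhere, above background on arrays 4 and 5 only. For adhesion, Icam1 was at 11.91 and Sele at 10.98 ± 0.60, both being inducible molecules that hold leukocytes on endothelium, and Jam2 was at 11.86. For clotting and tone, Tfpi, the inhibitor of tissue factor, was at 10.96, Plau at 10.18 and Ednrb, an endothelin receptor, at 9.56 on array 5 and 10.35 to 11.23 elsewhere. Ptgs2, inducible cyclooxygenase, ran from 5.36 to 7.87 and was above background on 0 arrays.

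Early response genes were high. Of 24 immediate early genes 20 were above background on all arrays, 14 were in the top 5% and the median level was 10.78. Dusp1, a phosphatase that shuts off MAP kinases, was at 12.45, Myc at 11.72, the zinc finger factor Klf6 at 11.64 and Fosb at 11.54 ± 0.61. Fosb was at 10.87 and 10.75 on arrays 1 and 6 and 11.66 to 12.28 on the others. These genes are known to be induced within minutes when cells are handled, and the part of handling was not tested. Atf4 was at 12.29 and the chaperones Hspa5 and Calr, of the endoplasmic reticulum, at 13.07 and 12.45, with 9 of 12 unfolded protein response genes above background.

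Of 26 fatty acid genes 9 were above background. Gpihbp1, which anchors lipoprotein lipase on capillaries, was at 12.13, Cd36 at 11.66, Fabp4, a lipid carrier, at 11.36 and Plin2, a coat protein of lipid droplets, at 11.06. Ppara, the fatty acid sensor of hepatocytes, was at 6.02. The cholesterol list had 5 of 16 above background, with Scarb1 and the exporter Abca1 (10.04 ± 0.52) highest and Sqle at 5.68. In glycolysis 10 of 13 were above, with Gapdh at 12.36, Pfkfb3, the endothelial activator of glycolysis, at 11.80 and Pkm at 11.61 ± 0.06. In oxidative phosphorylation 14 of 17 were above and 0 had an SD of 0.5 or more, beside 9.14% of all genes. The cell cycle list held 2 of 19 above background, Pcna at 12.51 and Mcm3 at 9.26, with the mitotic kinase Bub1 at 3.82.

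The steadiest genes among the top 5% of levels had an SD of 0.03 to 0.06. They were Selenop, Ppia (12.03), Cdh5, Rab7, Rhoa (11.19), Anxa5 (12.27), Ddx17 (10.89), Tmsb4x (12.79), Cap1 (11.57) and H3f3b (11.88). Ppia is a cyclophilin, Rhoa, Cap1 and Tmsb4x act on actin, and Anxa5 binds phosphatidylserine. Selenop read between 13.13 and 13.21 on all arrays.

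Of the 3377 genes above background 425, or 12.6%, had an SD of at least 0.5, and over all genes 1782, or 9.14%, had. Of the 425, 2 reached an SD of 1. Without arrays 1 and 6, 194 genes (5.74%) reached 0.5 and the median SD went from 0.29 to 0.20.

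**Figure D3:**
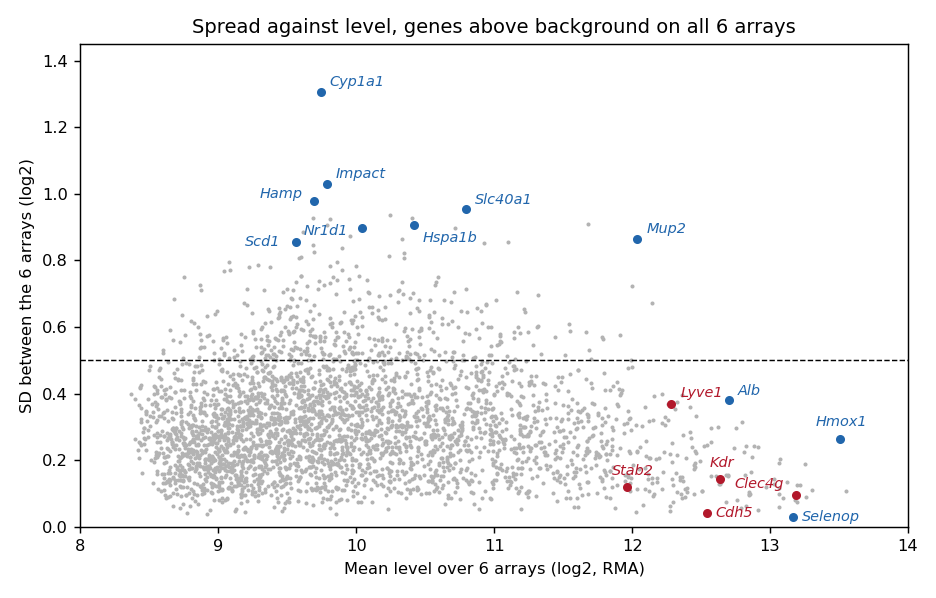
SD between 6 wild type LSEC arrays (vertical axis) against mean log2 level (horizontal axis) for the 3377 genes above background on all arrays, with the limit of 0.5 dashed. Cyp1a1 has the largest SD, 1.31, and the label genes in red lie under the limit, with Cdh5 at 0.04.

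The first principal component of the genes above background held 63.9% of the variance, with scores of 0.57 and 0.52 for arrays 1 and 6, -0.43 and -0.44 for arrays 2 and 4, -0.20 for array 5 and -0.02 for array 3. The next component held 17.7% and set arrays 3 and 5 (0.65 and 0.44) against array 2 (-0.53). Both arrays 1 and 6 read above all of arrays 2 to 5 for 815 of the 3377 genes (24.1%) and below all of them for 1159 (34.3%). Of the 425 variable genes, 340 in all followed either pattern, 232 above and 108 below.

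Genes above in arrays 1 and 6 included enzymes of the antioxidant response. Gclc, the rate-limiting enzyme of glutathione synthesis, read 11.60 and 11.58 on arrays 1 and 6 and 9.61 to 9.92 on arrays 2 to 5. Gsr, glutathione reductase, which is outside the list counted here, read 11.05 and 10.87 against 8.94 to 9.53. Srxn1, which restores peroxiredoxins, read 11.31 and 11.26 against 9.48 to 10.71, with array 2 between the groups. Nqo1, a quinone reductase, read 9.33 and 9.11 against 7.38 to 7.78, above background on arrays 1 and 6 only. Of 15 listed antioxidant genes 7 lay above and 4 below in both arrays, beside 2670 above and 4801 below of all 19505 genes. Of the 13 above background 6 lay above and 4 below, beside 24.1% and 34.3% of all genes above background. The letters TGACNNNGC of the antioxidant response element, on either strand, occurred in 4 of 13 promoters matched to this list (30.8%) and in 10.1% of all promoters. The 4 were Gclm, Nfe2l2, Prdx1 and Sod1, while Srxn1 and Nqo1 held no match and Gclc was not among those matched. Hmox1, at rank 2, read 13.76 and 13.75 on arrays 1 and 6, but array 2 followed at 13.72.

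Cyp1a1, the enzyme induced through the aryl hydrocarbon receptor, had the largest SD of all genes above background. It read 10.95, 10.09, 8.52, 8.73, 8.63 and 11.53 on arrays 1 to 6, so arrays 3, 4 and 5 lay within 0.21 of each other and array 2 between the groups. Its promoter is shown beside the receptor's core letters GCGTG, which occur once in these 250 bases and in 28.2% of all promoters. The match marks letters only, and whether the receptor binds there was not tested. The window is chr9:57697363-57697612 on the plus strand, with the pattern in capitals.
Cyp1a1: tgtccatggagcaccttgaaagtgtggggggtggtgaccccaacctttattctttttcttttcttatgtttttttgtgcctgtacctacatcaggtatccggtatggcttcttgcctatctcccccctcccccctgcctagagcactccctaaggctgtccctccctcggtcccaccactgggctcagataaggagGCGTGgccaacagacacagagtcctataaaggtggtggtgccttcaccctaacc

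Genes of several other functions lay above in arrays 1 and 6. Impact, a regulator of the amino acid-sensing kinase Gcn2, read 11.14 and 11.07 against 8.94 to 9.36. Asns, asparagine synthetase, read 10.33 and 10.20 against 8.44 to 9.10. Slc40a1 read 11.99 and 11.94 against 9.81 to 10.55, and Olr1, the endothelial receptor for oxidised LDL, 11.78 and 11.77 against 9.69 to 11.10. Of 15 clock genes 3 lay above in both arrays and 5 below, beside 2670 above and 4801 below of all 19505 genes. The 3 above were Clock (11.37 and 11.43 against 9.57 to 10.84), Nr1d2 (10.26 and 10.55 against 8.92 to 9.29) and Arntl. Suco, the ion channel kinase Trpm7, Nktr, the splicing factor Srek1, the RNA-decay kinase Smg1 and the long non-coding RNA Lncpint were also above in both arrays, and all 6 are among the 30 genes of largest SD.

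Genes below in arrays 1 and 6 included Jund, Socs3, Sod3 and H2ac15. Jund, a subunit of the transcription factor AP-1, read 10.23 and 10.12 against 11.19 to 11.68. Socs3, an inhibitor of cytokine signalling, read 9.24 and 9.11 against 10.25 to 10.97. Sod3, extracellular superoxide dismutase, read 7.97 and 8.17 against 8.63 to 9.80. The histone gene H2ac15 read 8.08 and 7.79 against 8.82 to 9.91. Of 65 ribosomal protein genes 48 (73.8%) were below in both arrays, as were 12 of 17 oxidative phosphorylation genes and 12 of 24 immediate early genes. Of all 19505 genes 4801 were below in both. Counting only genes above background, it was 47 of 59 ribosomal, 11 of 14 oxidative phosphorylation and 10 of 20 immediate early genes. Of all 3377 genes above background it was 34.3%, and 55.5% in the shortest group by length, described below.

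**Figure D4:**
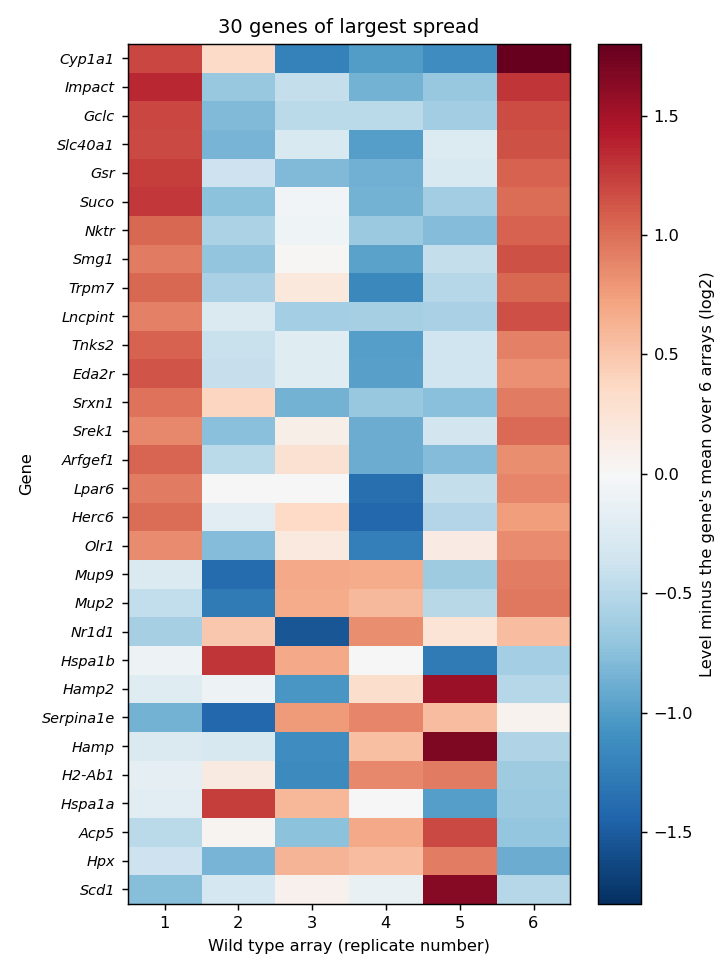
Log2 level minus the gene's own mean (colour) for the 30 genes of largest SD above background (rows) on the 6 wild type LSEC arrays (columns). In 18 of the 30, arrays 1 and 6 are both above the other 4, and among the rest Hamp and Scd1 peak on array 5 and Mup2 and Mup9 on array 6.

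The direction went with the length of the gene on the genome. Genes above background were split into 4 groups of 844 or 845 by length. In the shortest group (up to 9.21 kb), 6.51% were above and 55.5% below in both arrays 1 and 6. In the longest group (from 49.5 kb), 36.8% were above and 19.4% below. The median difference between the means of arrays 1 and 6 and of arrays 2 to 5 was -0.35 in the shortest group and 0.16 in the longest. All 3377 genes had a length. The intron controls were higher on the same 2 arrays, and the part of unspliced RNA or of RNA quality in these differences was not tested.

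**Figure D5:**
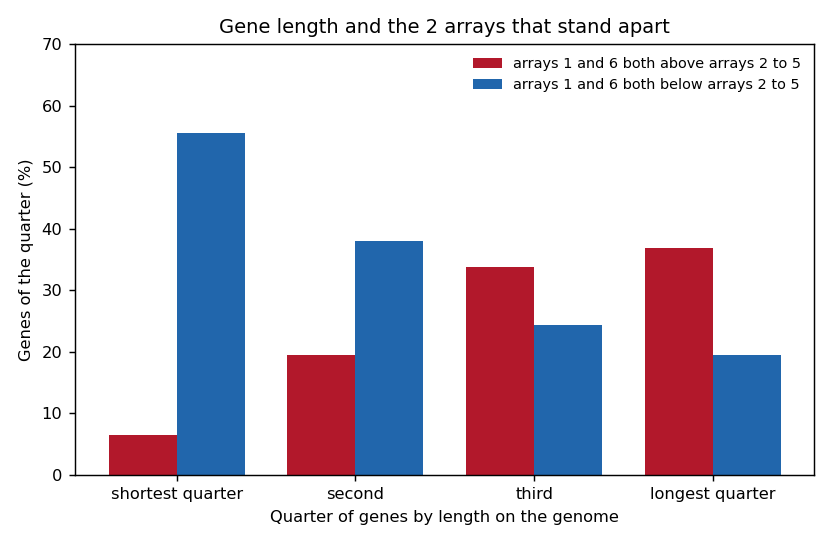
Share of genes above background (vertical axis, %) for which arrays 1 and 6 both lie above (red) or both below (blue) arrays 2 to 5, in 4 groups by gene length on the genome (horizontal axis, 844 or 845 genes each). The red share goes from 6.51% to 36.8% and the blue share from 55.5% to 19.4%.

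With arrays 1 and 6 left out, the set of variable genes changed in part. Of the 194 genes with an SD of at least 0.5 on arrays 2 to 5, 129 were among the 425 and 65 were not. Cyp1a1 went from 1.31 to 0.74, Impact from 1.03 to 0.17 and Gclc from 0.93 to 0.15, while Hamp went from 0.98 to 1.19 and Hspa1b from 0.91 to 1.09.

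Array 5 had the highest hepatocyte list mean. Hamp, the iron hormone hepcidin of hepatocytes, read 11.37 on array 5 and 8.58 to 10.23 on the other 5, and its near-identical copy Hamp2, which shared probes may not separate, 11.17 against 8.57 to 9.93. Scd1, which desaturates fatty acids and is abundant in hepatocytes, read 11.20 against 8.80 to 9.64. Adh1, an alcohol dehydrogenase of hepatocytes, read 10.70 against 8.60 to 9.35, and Rgn, above background on array 5 only, 8.89 against 6.85 to 7.24. On array 5 the hepatocyte list mean was 10.50, the macrophage list mean 8.50 and the stellate list mean 8.60, the highest of the 6 arrays in each case, and 21 of the 23 hepatocyte genes were highest there, beside 15.2% of all genes. The share of these cells in the differences was not tested.

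Array 3 read highest for several acute phase genes. Saa2, serum amyloid A of hepatocytes, read 9.99 on array 3 and 6.68 to 7.54 on the rest, and of 12 listed acute phase and metal genes 7 were highest on array 3, beside 14.1% of all genes. Saa2 was above background on array 3 only. The hepatocyte list mean was 9.27 on array 3, 8.99 to 9.93 on arrays 1, 2, 4 and 6, and 10.50 on array 5. The part of hepatocyte RNA in the acute phase values was not tested. Lcn2 read 10.25 on array 3, 9.85 on array 5 and 8.44 to 9.58 elsewhere. The clock gene Nr1d1, a repressor that cycles over the day, read 8.50 on array 3 and 9.44 to 10.87 on the others. The time of day at which each sample was taken is not given in the sources used here, and its part was not tested. Rab3b, a GTPase of exocytosis, read 11 against 9.37 to 9.88, and Timp2, an inhibitor of matrix proteases, 8.52 against 9.42 to 10.76.

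Array 2 was highest for 5 of 9 heat shock genes and for 24.8% of all genes. Hspa1b, an HSP70 that heat and other stress induce, read 10.32, 11.70, 11.10, 10.42, 9.15 and 9.81, and its copy Hspa1a 11.59 on array 2 against 9.35 to 10.94. The list was not of one kind: Hspd1, a mitochondrial chaperone, was lowest on array 2 at 8.28, and Hsp90aa1, a cytosolic one, read 12.41 on array 1 and 11.77 on array 2. Hspa1a and Hspa1b are almost the same in sequence and their probes may not tell them apart: even their 250 upstream bases match at 247 positions. The pattern GAANNTTC, part of the heat shock element, occurs once in that window of Hspa1b, in 4 of the 8 promoters matched to the heat shock list and in 6.78% of all promoters. The Hspa1b window is chr17:34959239-34959488 on the minus strand, with the pattern in capitals.
Hspa1b: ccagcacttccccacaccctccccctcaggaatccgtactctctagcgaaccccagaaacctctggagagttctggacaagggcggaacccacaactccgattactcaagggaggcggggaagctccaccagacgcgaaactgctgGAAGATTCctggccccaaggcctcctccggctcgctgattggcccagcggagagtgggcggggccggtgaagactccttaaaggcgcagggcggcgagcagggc

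Array 4 was highest for Itgb3, an integrin subunit (10.39 against 8.71 to 9.54), for the glucocorticoid-induced Fkbp5 (10.74 against 9.03 to 10.12) and for the ephrin receptor Epha2 (9.57 against 8.06 to 8.45). It was lowest for Herc6, an interferon-induced ligase (9.31 against 10.19 to 11.73), and Gbp9, an interferon-induced GTPase (9.60 against 9.97 to 11.45).

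Sex-linked and sex-biased transcripts differed between arrays, and the labels give no sex. The Y-linked genes Eif2s3y, Kdm5d and Uty read 9.11 and 9.56, 7.27 and 7.32, and 8.14 and 8.66 on arrays 3 and 6, and at most 4.41, 4.07 and 3.0 on the other 4. Mup2, a urinary protein of hepatocytes whose many copies shared probes may not separate, read 12.71, 12.62 and 12.99 on arrays 3, 4 and 6 and 10.77 to 11.60 on arrays 1, 2 and 5. Elovl3, higher in livers of male mice, was at 6.36, 7.14 and 6.22 on the same 3 arrays and 4.58 to 4.99 on the others. Cyp3a41a, higher in females, was at 7.85, 7.38 and 7.14 on arrays 1, 2 and 5 and 4.70 to 5.20 on arrays 3, 4 and 6. Elovl3 and Cyp3a41a were above background on 0 arrays. Array 4 did not side with arrays 3 and 6 throughout: among other genes of the male-biased list, Cyp4a12a read 5.03 on array 4, beside 4.43 to 4.83 on arrays 1, 2 and 5 and at least 6.23 on arrays 3 and 6. Cyp7b1 read 5.26 on array 4 against 6.54 and 6.16 on arrays 3 and 6, and both genes were above background on 0 arrays. Arrays were not grouped by these values, and their part in any other difference was not tested.

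The 5 knockout arrays, which the choice of members did not use, gave nearly the same genes at the top of the order. They share probes with the wild type arrays, and each gene's cluster was chosen by its wild type mean, which makes the orders alike in part. Of the 30 highest wild type genes 28 were among the 30 highest in knockout, and of the top 975 genes 927 (95.1%) were shared. Clec4g was at rank 9 (13.17 ± 0.08), Cdh5 at rank 56 (12.55 ± 0.13) and Stab2 at rank 162 (11.97 ± 0.23). Alb was at 12.23 in knockout and 12.70 in wild type. Some lists were less alike. The macrophage list median was 9.04 in knockout and 7.63 in wild type, and that of MHC class II 9.44 and 8.66. For hepatocyte genes it was 8.65 and 9.51, and for LSEC identity genes 11.9 in both. Of the 3377 genes, 413 (12.2%) had an SD of at least 0.5 over the knockout arrays, and 253 of them were also variable in wild type, which is 61.3% of the knockout set and 59.5% of the wild type set. Cyp1a1 again had a large SD, 1.96. The knockout arrays were also uneven in their intron controls, with medians from 4.96 to 5.80. No difference between the genotypes was tested.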

How the data were processed

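Total RNA (100 ng) from LSEC was labelled as biotinylated cDNA and hybridised to Mouse Clariom S arrays, per the labels' protocols. The deposited log2 values were made by the authors with RMA in Affymetrix Expression Console, per the submitters' processing notes, and RMA makes array distributions alike. The versions and the genome build are not given in the sources used here. Rows of transcript clusters were kept and 6640 control rows set apart. Symbols came from the platform annotation, 88.1% of clusters having 1, and the cluster of highest mean stood for a symbol. Means, SDs, ranks and principal components were computed in Python 3.11.15. limma 3.58.1 in R 4.3.3 gave an alternative background call (adjusted p under 0.05). The scripts were tested on simulated data. The 6 arrays form 1 group, so no test between groups was run, and their number limits the precision.

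Genes named were the label markers and Atg5, the 30 highest by level (also with ribosomal, mitochondrial and predicted genes left out), the 30 of largest SD, the 10 steadiest among the top 5% of levels, the 10 at each end of the first component, the 5 highest and 5 lowest for each array, and of each list the 4 highest, the lowest and the most variable; further genes are named as picked after their values were seen. The members and lists were chosen with earlier results of these data known. Alternatives changed the background limit, the averaging, the normalization, the measure of spread and the arrays used.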

Additional observations from a re-analysis of the deposited data

Results flagged for a closer look

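Among 370 named genes and 58 list means, 19 of 428 values (4.44%) had 1 array farther from the other 5 than Dixon's 95% critical value allows. For values not picked by their spread, chance flags about 1 in 20. Some named genes were picked for a large SD or for 1 array far from the others. The 4.44% can therefore not be read against that rate.

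Array 5 read high for Adh1 (10.70 against 8.60 to 9.35), Scd1 (11.20 against 8.80 to 9.64), Rgn (8.89 against 6.85 to 7.24) and the mean of the cytokine and chemokine list (9.66 against 8.84 to 9.08). Array 3 read high for Saa2 (9.99 against 6.68 to 7.54), Rab3b (11 against 9.37 to 9.88) and Fcgr2b (13.34 against 13.11 to 13.18), and low for Bhlhe41, a clock repressor (4.62 against 4.99 to 5.20). Array 1 read low for Bst2 (10.16 against 11.14 to 11.70), the galectin Lgals1 (8.99 against 10.15 to 10.72) and the tetraspanin Cd81 (12.76 against 13.01 to 13.15).

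Array 2 read low for the collagen-modifying enzyme P4ha1 (9.29 against 10.04 to 10.42), the adhesion receptor Adgrf5 (12.37 against 12.70 to 12.80) and Pecam1 (11.98 against 12.15 to 12.25). Array 4 read low for B2m (13.33 against 13.58 to 13.61) and Bmpr1a (4.43 against 5.26 to 5.44), and high for Epha2 (9.57 against 8.06 to 8.45). Array 6 read low for Tlr2 (10.37 against 10.79 to 11.02) and the keratin Krt7 (6.61 against 6.96 to 7.14).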

How the results depend on the processing

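The number of genes above background, 3377, was 15284 with the mean of the antigenomic rows as limit and 15607 with limma's intercept test (adjusted p under 0.05), 3192 with their 99th percentile, 5064 on at least 3 arrays and 3380 to 3728 with an array left out. The 425 variable genes became 1782 over all genes, 2 at an SD of at least 1, and 334 to 510 with an array left out. In alternatives chosen after seeing the data, they were 194 on arrays 2 to 5 only and 50 with the first principal component taken out. Taking it out can only lower an SD, so the 50 are necessarily among the 425. With an array left out, 27 to 29 of the 30 highest genes stayed, 142 to 167 of the listed genes were variable (159 with all arrays), 909 to 931 top genes were shared with the knockout arrays (927), and the first component held 57.3% to 73.4%. That component held 52.6% over all genes. Of 522 list medians recomputed, 489 moved by less than their spread between arrays. All 3700 recomputed levels of the 370 named genes moved by less than the gene's SD, but this was nearly fixed in advance. Leaving out an array, keeping arrays 2 to 5 only or taking the median cannot move a gene's level by a full SD. Averaging clusters changes only symbols with several clusters. The 3700 can therefore not be read as a test of how stable the levels are. No paired analysis was possible because the values describe 1 group and no groups were compared. Genes under the background limit may be expressed, and their ranks are uncertain.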
